A study of Mus musculus with 6 samples.

Results

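The collagen chain genes of a mouse embryonic fibroblast line without a circadian clock were compared before and after a single cryptochrome was put back. Collagen genes were taken by their symbols (Col, a type number, the letter a and a chain number), and those with at least 60 counts summed over the 6 libraries were kept. This left 26 of the 44 collagen genes among 27179 genes in all. Of the 18 below the minimum, Col9a1, Col25a1 and Col6a6 had 0 counts. Col2a1 with 60 counts and Col10a1 with 79 counts were just inside the minimum, and Col22a1 with 48 counts and Col8a2 with 44 counts were just outside it. The 26 genes comprised 10 fibrillar collagens, 4 basement membrane collagens, 4 FACIT collagens and 8 others.

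Collagens are secreted proteins of 3 chains wound into a triple helix. Fibrillar collagens (types I, II, III, V, XI and XXVII) pack into fibrils, in which types I and III give bulk and types V and XI start the fibril and limit its width. Type IV collagen forms the network of basement membranes. FACITs bind to the surface of fibrils, and the remaining types include the beaded filaments of type VI, the anchoring fibrils of type VII, the short-chain networks of types VIII and X, the transmembrane type XVII and the multiplexin type XVIII. Fibroblasts are the main source of fibrillar and type VI collagen in connective tissue.

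The parental line, CPN-/-, lacks Cry1, Cry2, Per1, Per2, Nr1d1 and Nr1d2, and both other lines carry the same 6 deletions. Each of the other lines, CPN-/- CRY1 and CPN-/- CRY2, was grown from a single colony selected with blasticidin after infection of CPN-/- cells with a retroviral vector, pWZL-blast, that carried mouse Cry1 or Cry2 cDNA under a viral promoter. The effect of the cryptochrome and of the colony that was picked cannot be told apart. All cells were grown in DMEM with fetal bovine serum and harvested shortly before confluence. Polyadenylated RNA was sequenced in 2 libraries per line, made from independent RNA preparations. Nothing states that these came from separate cultures, and the p-values then measure only the spread between these samples.

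The libraries held between 25957409 and 36106949 counts. Cry1 was at 125 and 115 CPM (counts scaled to the TMM-normalized library size) in CPN-/-, 165 and 190 CPM in CPN-/- CRY1 and 51 and 48.3 CPM in CPN-/- CRY2. Cry2 was at 136 and 129 CPM in CPN-/-, 50.7 and 51.7 CPM in CPN-/- CRY1 and 349 and 351 CPM in CPN-/- CRY2. Each re-expressed gene was therefore highest in its own line, while counts of 476 to 3756 were still assigned to the deleted genes Per1, Per2, Nr1d1 and Nr1d2, so that counts over these genes do not show whether they are knocked out. The 8 fibroblast markers summed to 3083 to 4375 CPM, of which Vim made up 2384 to 3642 CPM, and Thy1 and Fap, with at most 7 counts, were under 1 CPM in every library. Of the 6 tested, Fbln1, at 1 to 171 counts, was called lower in both CRY lines, and in CPN-/- CRY1 Pdgfra was lower (log2 -1.31, adjusted p = 0.0015) and Pdgfrb higher (0.88, adjusted p = 0.01). The part of these markers in the collagen results was not tested. All 6 epithelial, all 6 endothelial and all 5 skeletal muscle markers were under 1 CPM in every library, with Epcam at 0.

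The CPN-/- libraries stood apart from each other, and this touches the collagen genes directly. Collagen mRNAs are long, with a median transcript length of 5989 nt against 3034 nt for all tested genes of known length, and 22 of the 26 were over 5000 nt. In CPN-/-, 22 of the 26 were lower in replicate 2 than in replicate 1, with a median difference of log2(CPM + 0.5) of -0.38, against -0.02 over all 14069 tested genes and -0.42 over the 2686 tested genes of at least 5000 nt. Col12a1, the longest at 11511 nt, differed by -1.23, and Col9a3, the shortest at 3046 nt, by 0.40. The same median over the collagen genes was -0.03 in CPN-/- CRY1, with -0.05 in CPN-/- CRY2. The Spearman correlation of this difference with transcript length was -0.68 in CPN-/-, 0.19 in CPN-/- CRY1, with -0.28 in CPN-/- CRY2, over 13242 genes of the same libraries, which are not independent. For this reason values without each CPN-/- library, or with the length trend of every library removed, are given beside many of the main folds. In the fits that leave out a CPN-/- library, the remaining one sets the CPN-/- level alone. The spread then comes from the CRY lines only and leaves out the difference between the CPN-/- libraries. The log2 values of these fits show how far a result depends on the CPN-/- pair. Their calls against CPN-/- do not show a difference between lines. Counts of alternatives that kept or gave a call, here and below, include these fits.

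**Figure D1:**
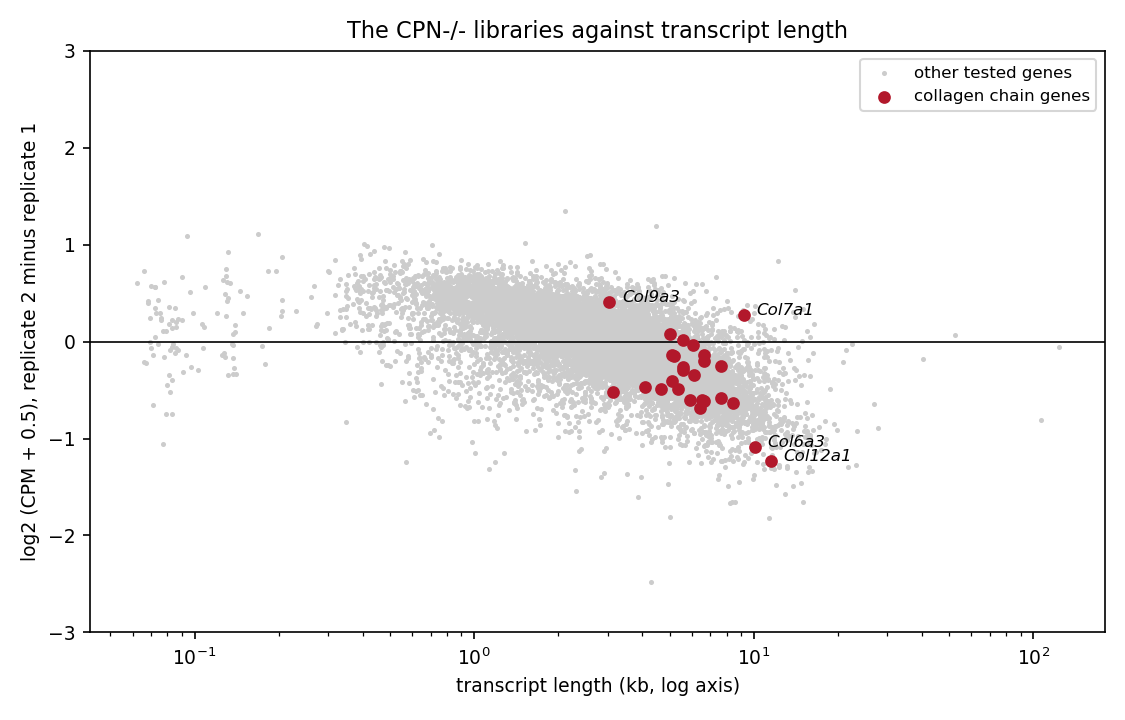
Difference between the CPN-/- libraries (log2 of CPM plus 0.5, replicate 2 minus replicate 1) against transcript length in kb on a log axis. Each grey point is another tested gene and each red point a collagen chain gene. Longer transcripts lie lower, and Col12a1 is the lowest of the collagen genes at -1.23.

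Type I collagen led in level. Per kb of transcript, Col1a2, the second chain of type I collagen, was the highest collagen mRNA in every library, with 678 to 1185 CPM per kb, and Col1a1, its main chain, came next with 367 to 664 CPM per kb. In the CPN-/- CRY1 libraries Col4a1, at 393 and 417 CPM per kb, came close to Col1a1, at 435 and 427 CPM per kb. Col5a2, a chain of the fibril-initiating type V, was at 253 to 293 CPM per kb. Col3a1, the type III chain that accompanies type I in skin and vessels, was only at 1.56 to 2.31 CPM per kb. The ratio of Col1a1 to Col1a2 per kb was 0.542 to 0.607 over the 6 libraries, without separation of the lines. At the other end, Col2a1, Col5a3, Col10a1 and Col4a6 had at most 27 counts in any library, which limits what can be detected for them. Together the 26 genes took 1.57% and 1.09% of the counts in CPN-/-, 1.65% and 1.61% in CPN-/- CRY1, with 1.96% and 1.83% in CPN-/- CRY2.

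**Figure D2:**
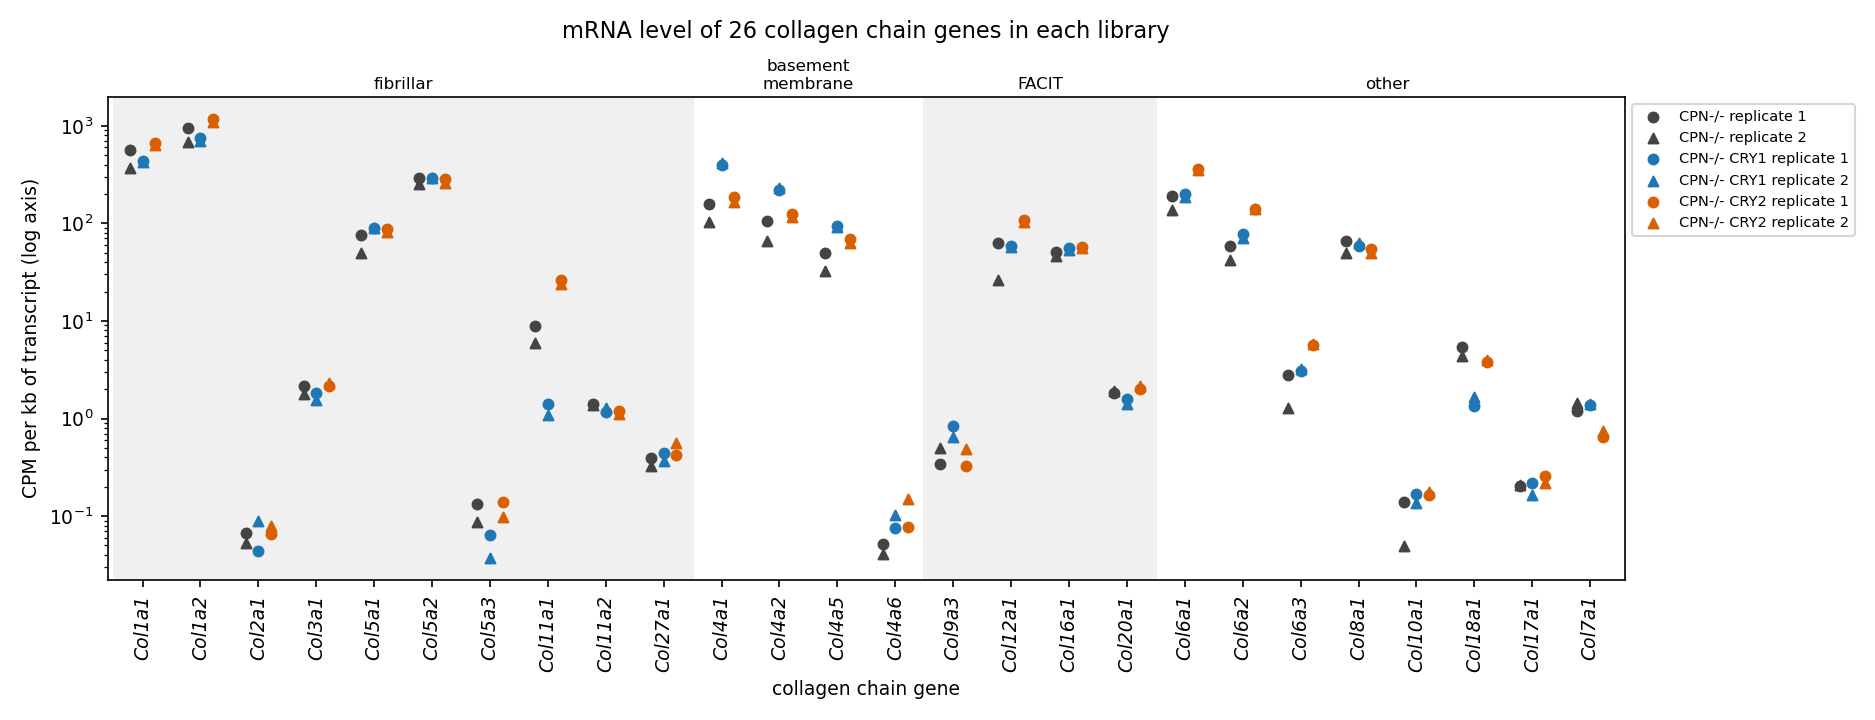
Level of each of the 26 collagen chain genes in CPM per kb of transcript (log axis), grouped by class. Colours mark the cell lines, and circles and triangles the libraries. The type IV chains Col4a1, Col4a2 and Col4a5 are highest in both CPN-/- CRY1 libraries, and the type VI chains and Col11a1 in both CPN-/- CRY2 libraries.

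The make-up of the collagen mRNA differed between the lines. Basement membrane chains made up 11.8% and 10.7% of the summed collagen CPM per kb in CPN-/-, 25.8% and 27.4% in CPN-/- CRY1, with 11.3% and 10.9% in CPN-/- CRY2. Fibrillar chains made up 71.6% and 72.7%, 57.4% and 56.3%, and 66.9% and 66.5% in the same order. The beaded filament chains of type VI had 9.48% and 9.62% in CPN-/-, 10.2% and 9.6% in CPN-/- CRY1, with 15.1% and 15.8% in CPN-/- CRY2. The FACIT share stayed between 4.03% and 5.05%. For the basement membrane, fibrillar and type VI shares, the difference between the line that stood apart and the others was larger than that between the libraries of a line. With 2 libraries a line, no exact permutation test of such shares can pass the threshold, as the smallest two-sided p is 33.3%.

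**Figure D3:**
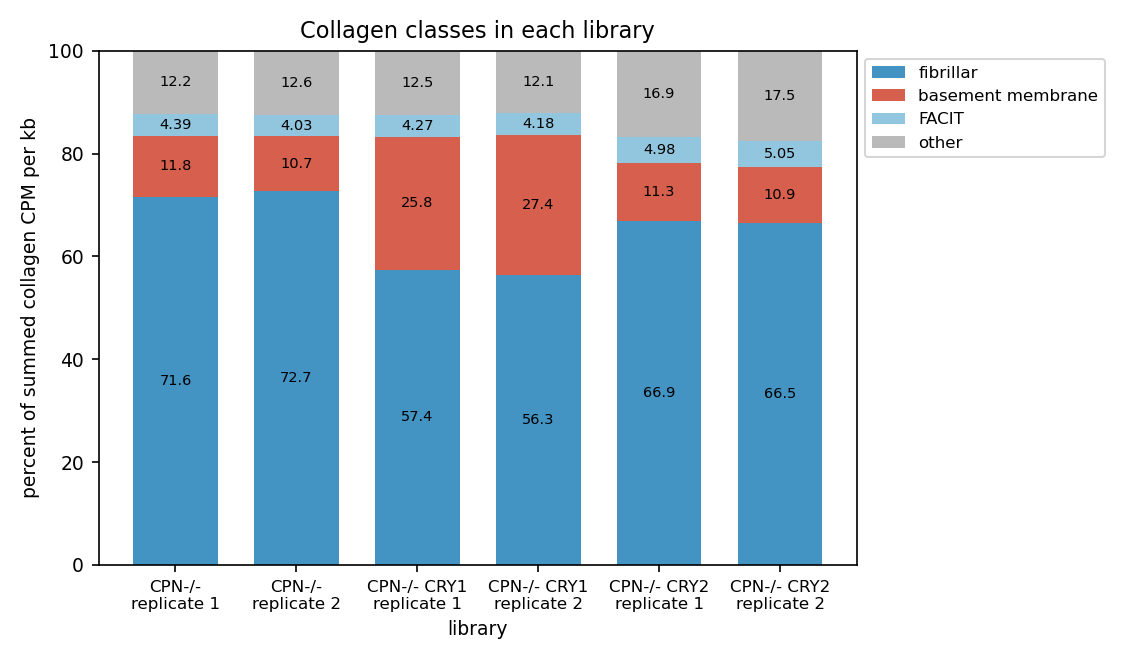
Share of each collagen class in the summed collagen CPM per kb of each library, as stacked bars that start at 0. The basement membrane share is 25.8% and 27.4% in the CPN-/- CRY1 libraries and 10.7% to 11.8% in the others.

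Compared with CPN-/-, 6 of the 26 collagen genes were called in CPN-/- CRY1 (23.1%), at a Benjamini-Hochberg adjusted p under 0.05 in edgeR's quasi-likelihood fit of the whole table, and 24.3% of all 14069 tested genes were. The collagen genes as a group were thus called about as often as any gene. Col4a1, Col4a2, Col4a5 and Col6a2 were higher, where 11.2% of all genes were called higher, and Col11a1 and Col18a1 were lower, where 13.1% were called lower. The count was 11 with the length trend removed. The share of all genes called in that fit is not given here, so the rise is not read as a collagen result. More were called without either CPN-/- library and fewer without either CPN-/- CRY1 library, in fits that leave a line with 1 library. In bulk RNA, fewer cells that make a transcript and less of it per cell cannot be told apart.

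In the CPN-/- CRY2 line, 5 of 26 collagen genes were called against CPN-/- (19.2%), where 6.66% of all tested genes were. Col11a1, Col6a1, Col6a2 and Col6a3 were higher, against 2.58% of all genes called higher, and Col7a1 was lower, against 4.08% called lower. With the length trend removed the count was 11, again without the share of all genes called in that fit. More were called without either CPN-/- library and fewer without any one CRY library, in fits that leave a line with 1 library.

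Between the CRY lines, 8 of 26 collagen genes differed (30.8%), where 16.3% of all tested genes did. Col4a1, Col4a2 and Col7a1 were higher in CPN-/- CRY1 (7.72% of all genes called higher) and Col1a2, Col11a1, Col6a1, Col6a2 and Col18a1 were higher in CPN-/- CRY2 (8.57% of all genes called in that direction). This comparison uses no CPN-/- library for its fold changes, but it shares their spread. Fitted on its own 4 libraries it called 17 collagen genes. More were also called without either CPN-/- library and fewer without any one CRY library, in fits that leave a line with 1 library. The shares of all genes called in these fits are not given here, so the rise is not read as a collagen result. Of the tested pathway genes described below, 24 were called with all 6 libraries and 41 in the fit on 4.

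**Figure D4:**
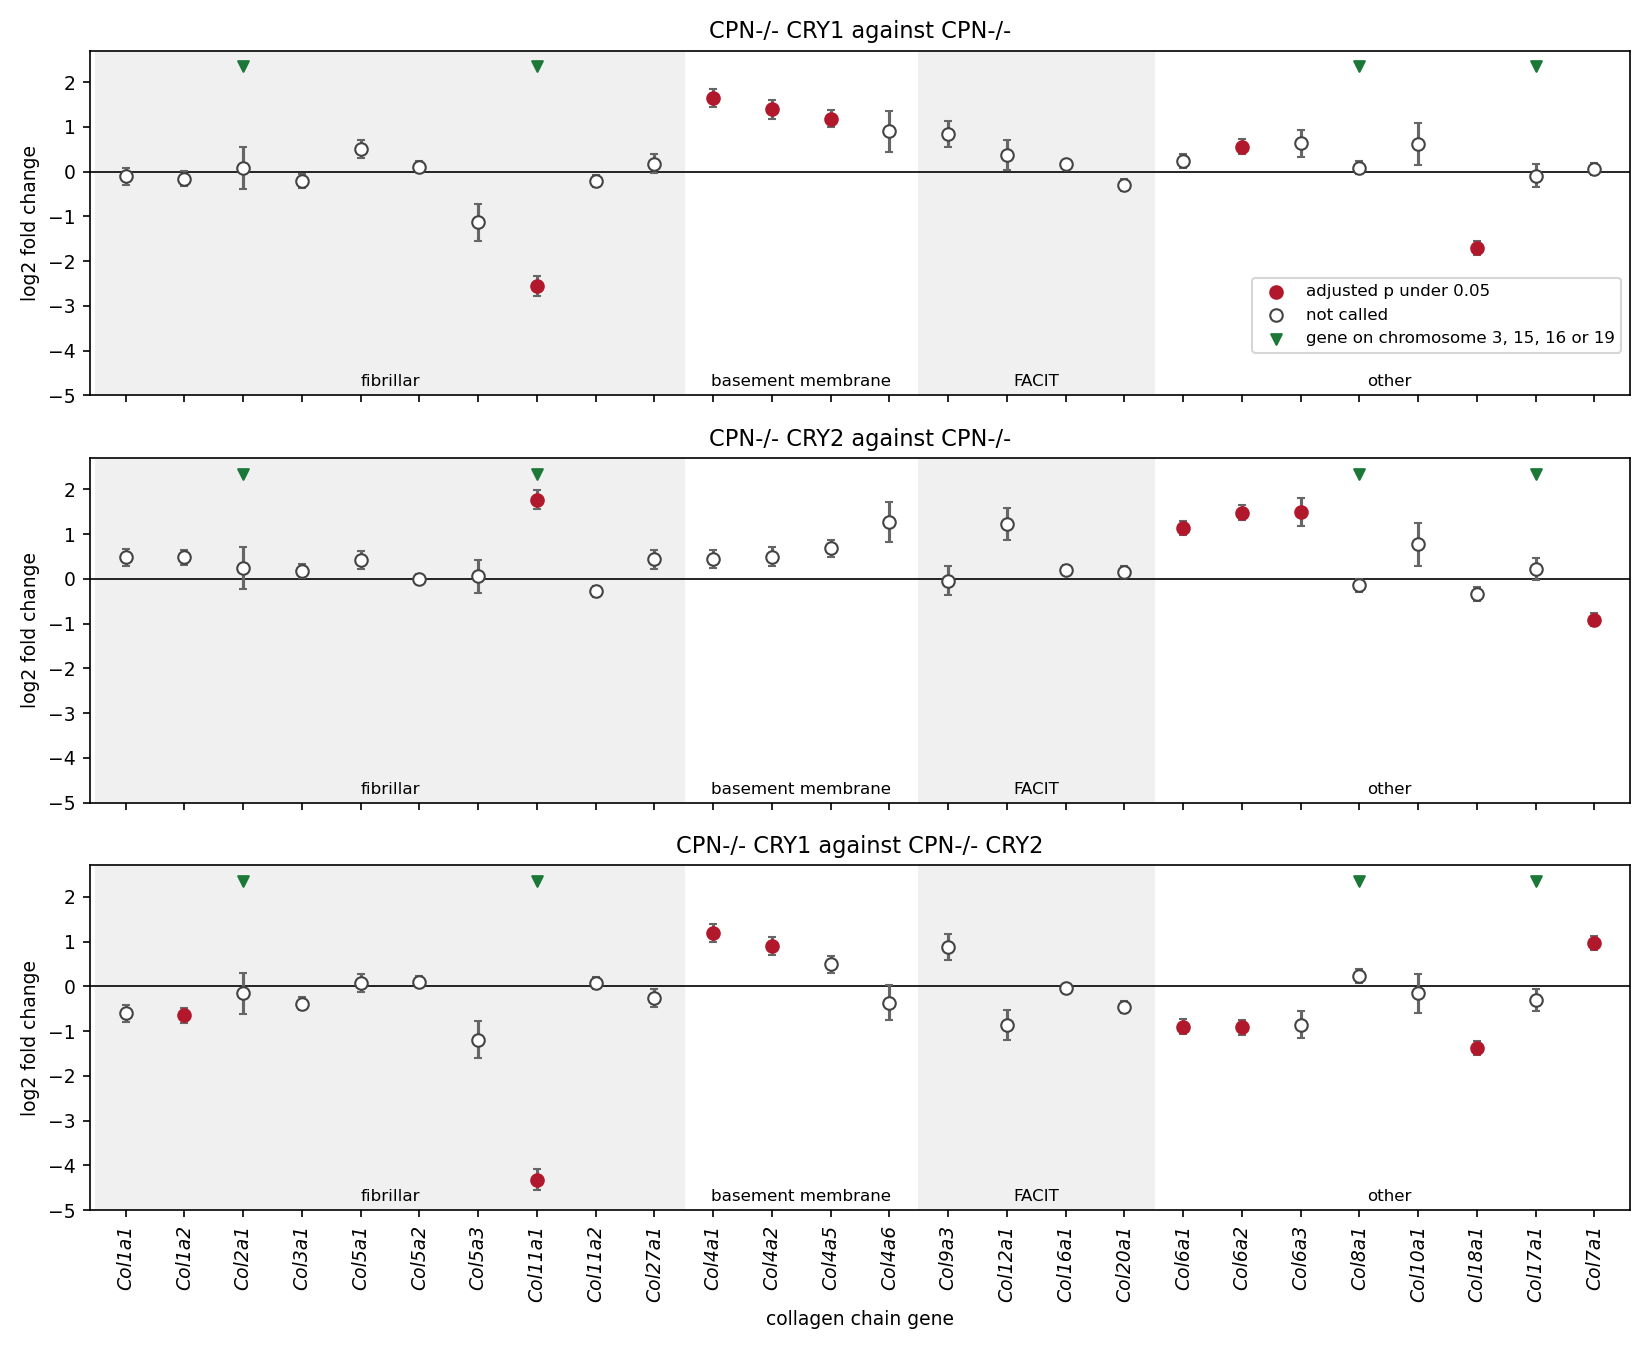
Log2 fold change of each collagen chain gene in the 3 comparisons, with bars of 1 standard error. Red points passed an adjusted p under 0.05 (edgeR), white points did not, and green triangles mark the genes on chromosomes 3, 15, 16 and 19. The type IV chains stand above 0 in CPN-/- CRY1, the type VI chains in CPN-/- CRY2, and Col11a1 lies below 0 in the first and above it in the second.

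Type IV collagen rose in CPN-/- CRY1. The median log2 fold change of its 4 genes was 1.29, against -0.01 over all tested genes. Of the 4, 3 were called higher, where 11.2% of all tested genes were. Col4a1 and Col4a2 encode the chains of the main type IV trimer, and Col4a5 and Col4a6 chains of the rarer trimers. The windows around the start sites of these 4 genes are shown because the genes lie head to head in pairs, as RefSeq gives them for GRCm38.p6, each written on its own strand from 250 bases before to 50 bases after the start. The Col4a1 window is chr8:11312777-11313076 on the minus strand and that of Col4a2 chr8:11312555-11312854 on the plus strand, and they share 78 bases. The Col4a5 window is chrX:141475169-141475468 on the plus strand and that of Col4a6 chrX:141474027-141474326 on the minus strand. Capitals mark the CCAAT box (CCAAT) and the GC box (GGGCGG) on either strand.
Col4a1: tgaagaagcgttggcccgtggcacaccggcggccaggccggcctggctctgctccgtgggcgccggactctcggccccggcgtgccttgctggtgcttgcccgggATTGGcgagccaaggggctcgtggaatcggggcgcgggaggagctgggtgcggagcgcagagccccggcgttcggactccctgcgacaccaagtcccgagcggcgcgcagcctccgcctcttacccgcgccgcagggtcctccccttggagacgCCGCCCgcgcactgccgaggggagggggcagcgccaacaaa
Col4a2: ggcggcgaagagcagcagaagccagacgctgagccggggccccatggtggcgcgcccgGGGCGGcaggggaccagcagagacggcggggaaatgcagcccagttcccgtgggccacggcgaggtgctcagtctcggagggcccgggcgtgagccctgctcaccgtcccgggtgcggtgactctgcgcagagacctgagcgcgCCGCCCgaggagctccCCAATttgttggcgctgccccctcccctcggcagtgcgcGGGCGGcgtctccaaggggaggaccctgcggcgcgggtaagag
Col4a5: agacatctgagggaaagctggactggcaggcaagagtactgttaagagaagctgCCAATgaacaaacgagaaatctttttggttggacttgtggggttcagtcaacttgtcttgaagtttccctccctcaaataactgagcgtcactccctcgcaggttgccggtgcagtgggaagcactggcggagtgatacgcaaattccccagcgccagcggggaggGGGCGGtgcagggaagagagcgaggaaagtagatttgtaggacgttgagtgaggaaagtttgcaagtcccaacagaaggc
Col4a6: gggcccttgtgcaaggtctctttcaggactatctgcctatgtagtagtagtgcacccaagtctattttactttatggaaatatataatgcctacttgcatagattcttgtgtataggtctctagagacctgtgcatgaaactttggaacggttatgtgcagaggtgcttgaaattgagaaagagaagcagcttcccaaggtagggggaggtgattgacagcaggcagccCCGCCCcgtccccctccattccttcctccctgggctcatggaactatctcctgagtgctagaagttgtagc

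Col4a1 spans chr8:11198423-11312889 and Col4a2 chr8:11312805-11449287 in GRCm38. The start sites of Col4a1 and Col4a2 are 21 bases apart in these windows, and the gene bodies of Col4a5 and Col4a6 1274 bases. The Col4a1 window held 1 CCAAT box and 1 GC box, and the Col4a2 window 1 CCAAT box and 3 GC boxes. The GC box of the Col4a1 window lies in the bases that the windows share. It is the same site as the last GC box of the Col4a2 window, read on the other strand, and is counted in both. Windows were found for 21 of the 26 collagen genes, 23 windows in all. The CCAAT box stood in 10 of these (43.5%), against 37.4% of 32851 RefSeq windows of the same length, and the GC box in 16 (69.6%), against 35.7% of all windows and 61.8% of those of tested genes. CACGTG, the E-box letters bound by CLOCK-BMAL1, stood in 0 of the 23, against 7.15% of all windows and 9.75% of those of tested genes. These are matches of letters only.

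Col4a1 was at 1031 and 672 CPM in CPN-/-, 2602 and 2756 CPM in CPN-/- CRY1 and 1227 and 1105 CPM in CPN-/- CRY2. Both CPN-/- CRY1 libraries were above all others, and CPN-/- CRY2 was above CPN-/- without a call. Its log2 fold change in CPN-/- CRY1 was 1.65 (SE 0.20, adjusted p = 0.0028), which is 3.15-fold, and the line was also 2.3-fold above CPN-/- CRY2 (log2 1.20, SE 0.20, adjusted p = 0.0097). The value against CPN-/- was 2.00 without CPN-/- replicate 1, 1.38 without replicate 2 and 1.49 with the length trend removed, and it was called in the last. The difference from CPN-/- CRY2 lost its call without any one CRY library (adjusted p = 0.077, 0.09, 0.077 and 0.1 in the order CRY1 replicates 1 and 2, CRY2 replicates 1 and 2).

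Col4a2 followed Col4a1 at a lower level, with 679 and 421 CPM in CPN-/-, 1405 and 1478 CPM in CPN-/- CRY1 and 805 and 744 CPM in CPN-/- CRY2. It was 2.62-fold higher in CPN-/- CRY1 than in CPN-/- (log2 1.39, SE 0.21, adjusted p = 0.0062) and 1.86-fold higher than in CPN-/- CRY2 (log2 0.90, SE 0.21, adjusted p = 0.032). The first call was lost without CPN-/- CRY1 replicate 1 (adjusted p = 0.0512) or replicate 2 (0.0602), and the second without any one CRY library (adjusted p of at least 0.16). Against CPN-/- the value was 1.78 without CPN-/- replicate 1 and 1.09 without replicate 2. The ratio of Col4a1 to Col4a2 per kb was 1.48 and 1.56 in CPN-/-, 1.81 and 1.82 in CPN-/- CRY1, with 1.49 and 1.45 in CPN-/- CRY2, so it was highest in both CPN-/- CRY1 libraries.

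Col4a5, on the X chromosome, was at 326 and 214 CPM in CPN-/-, 618 and 605 CPM in CPN-/- CRY1 and 453 and 415 CPM in CPN-/- CRY2. The lines did not overlap, and CPN-/- CRY2 lay between the others. The gene was 2.26-fold higher in CPN-/- CRY1 (log2 1.18, SE 0.19, adjusted p = 0.0075), with adjusted p = 0.067 without CPN-/- CRY1 replicate 1 and 0.066 without replicate 2, and log2 values of 1.52 and 0.91 without CPN-/- replicate 1 and 2. In CPN-/- CRY2 the log2 value was 0.69 (SE 0.19, adjusted p = 0.093), and the difference between the CRY lines missed the threshold (log2 0.49, SE 0.19, adjusted p = 0.13), although this difference was called in the fit on their 4 libraries alone (adjusted p = 3.2e-08). Col4a6, its head-to-head partner, had 7 to 27 counts and gave 0.90 and 1.27 against CPN-/- without a call. In CPN-/- CRY2 the median log2 fold change of the 4 genes was 0.59, with no call by edgeR in the fit of all 6 libraries, 2 of 4 under an unadjusted p of 0.05 and 1 of 4 called by DESeq2. The shares of all tested genes for the unadjusted p and for DESeq2 are not given here. The type IV values in CPN-/- CRY2 depend on the CPN-/- pair. Col4a5 in CPN-/- CRY2 was called in 6 of 15 alternatives, and the fits without a CPN-/- library are among the 6. Its value was 0.52 after the length trend was removed (adjusted p = 0.002), 1.02 without CPN-/- replicate 1 and 0.42 without replicate 2. Col4a2 was 0.88 and 0.20 without replicate 1 and 2, and was called with the length trend removed (0.35, adjusted p = 0.035). Without replicate 1 and 2, Col4a1 was 0.79 and 0.19, and Col4a6 1.48 and 1.13.

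Acta2 and Tagln, smooth muscle and myofibroblast markers, were also higher in CPN-/- CRY1. The 6 smooth muscle markers summed to 1461 and 1830 CPM in CPN-/-, 5359 and 5172 CPM in CPN-/- CRY1 and 2189 and 2429 CPM in CPN-/- CRY2. Acta2 alone was at 1157 and 1426, 4230 and 4099, and 1842 and 2055 CPM in the same order. Of the 5 tested, Acta2 (log2 1.69) and Tagln (1.77) were called higher in CPN-/- CRY1 and Des (-1.13) lower, with Myh11 (0.57) and Smtn (0.18) not called. In CPN-/- CRY2 none was called, with Acta2 at 0.59 and Tagln at 0.03. Cnn1 was under 1 CPM in every library. The part of these markers in the type IV result was not tested.

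Among 14 genes of other basement membrane proteins, 11 could be tested, and 1 was called higher and 1 lower in CPN-/- CRY1, with a median log2 fold change of 0.42, where 24.3% of all tested genes were called in either direction. Lamb2 (a laminin beta chain) was called higher with a log2 value of 1.00, and Lama4 (laminin alpha 4) fell from 55.1 and 32 CPM in CPN-/- to 2.3 and 2.01 CPM, a log2 change of -4.33 (SE 0.29, adjusted p = 3.5e-04). In CPN-/- CRY2 Lama4 stood at 66.8 and 68.6 CPM. Lama5 (laminin alpha 5) was called lower in CPN-/- CRY2, at 0.514 and 0.408 CPM against 7.48 and 3.68 CPM in CPN-/- and 7.53 and 7.56 CPM in CPN-/- CRY1 (log2 -3.60 against CPN-/-, adjusted p = 0.0047). Laminins are the other network-forming component of basement membranes.

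Col18a1, the chain of type XVIII collagen, a basement membrane proteoglycan whose end fragment is endostatin, went the other way from type IV. It was at 30.1 and 24.5 CPM in CPN-/-, 7.44 and 9.24 CPM in CPN-/- CRY1 and 21.2 and 22.1 CPM in CPN-/- CRY2. The CPN-/- CRY1 libraries were far below the rest, 3.28-fold below CPN-/- (log2 -1.71, SE 0.16, adjusted p = 9.3e-04) and 2.6-fold below CPN-/- CRY2 (log2 -1.38, SE 0.16, adjusted p = 0.0024). Both calls were kept in all 15 alternatives tried.

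Type VI collagen rose in CPN-/- CRY2. All 3 of its genes over the count minimum were called higher, where 2.58% of all tested genes were. Their median log2 fold change was 1.48, against -0.01 over all tested genes. Type VI collagen is built from 1 chain of each kind, and its microfibrils link cells to the matrix. Col6a1 and Col6a2 lie 85.2 kb apart on chromosome 10, on the same strand, and Col6a3 is on chromosome 1.

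Col6a1 was at 773 and 559 CPM in CPN-/-, 817 and 758 CPM in CPN-/- CRY1 and 1489 and 1445 CPM in CPN-/- CRY2. The CPN-/- CRY2 libraries were above all others, 2.2-fold above CPN-/- (log2 1.14, SE 0.16, adjusted p = 0.0092) and 1.86-fold above CPN-/- CRY1 (log2 difference of CPN-/- CRY1 -0.90, SE 0.16, adjusted p = 0.013). The first of these calls was lost without CPN-/- CRY2 replicate 1 (adjusted p = 0.086) or replicate 2 (0.075), and the second without any one CRY library (adjusted p from 0.093 to 0.14). In CPN-/- CRY1 the log2 value of Col6a1 was 0.49 without CPN-/- replicate 1 and 0.03 without replicate 2.

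Col6a2 was at 274 and 195 CPM in CPN-/-, 362 and 328 CPM in CPN-/- CRY1 and 650 and 655 CPM in CPN-/- CRY2. It was 2.78-fold higher in CPN-/- CRY2 (log2 1.48, SE 0.17, adjusted p = 0.0039), a call kept in all 15 alternatives. Against CPN-/- CRY1 the difference was 1.89-fold (log2 difference of CPN-/- CRY1 -0.92, SE 0.17, adjusted p = 0.013), with adjusted p from 0.093 to 0.14 without a CRY library. It was also called in CPN-/- CRY1, 1.47-fold higher (log2 0.56, SE 0.16, adjusted p = 0.0496), a call that 7 of the 15 alternatives lost. Without CPN-/- replicate 1 its log2 value was 0.82 and without replicate 2 0.34. Among the fits that lost the call were that on the 4 libraries of the comparison alone (adjusted p = 0.11) and those without any one CRY library.

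Col6a3, the long chain of type VI, was far less abundant, at 28.1 and 13 CPM in CPN-/-, 31.3 and 32.7 CPM in CPN-/- CRY1 and 57.6 and 58.4 CPM in CPN-/- CRY2. CPN-/- replicate 2 was far below the other libraries. The gene was 2.81-fold higher in CPN-/- CRY2 (log2 1.49, SE 0.31, adjusted p = 0.037). That value was 2.16 without CPN-/- replicate 1, 1.05 without replicate 2 and 1.21 with the length trend removed, with a call in the last. The call was lost in 7 of the 15 alternatives, among them those without a CPN-/- CRY1 library (adjusted p = 0.099 and 0.1) or a CPN-/- CRY2 library (0.18 and 0.19). Per kb, Col6a3 was at 0.00943 to 0.0175 of Col6a1, and Col6a1 at 2.51 to 3.26 of Col6a2, so the mRNAs of the 3 chains were far from equal in all lines.

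Col11a1 moved in opposite directions in the CRY lines and had the largest log2 fold change of the 26 genes in all 3 comparisons with all 6 libraries, although without CPN-/- replicate 1 Col6a3 (2.16) was above it (2.09) in CPN-/- CRY2. It encodes a chain of type XI collagen, which starts thin fibrils and is best known from cartilage, and lies at chr3:114030479-114220756 in GRCm38. It was at 67.8 and 45.3 CPM in CPN-/-, 10.9 and 8.27 CPM in CPN-/- CRY1 and 200 and 185 CPM in CPN-/- CRY2. The 3 lines were fully separated. It was 5.89-fold lower in CPN-/- CRY1 than in CPN-/- (log2 -2.56, SE 0.22, adjusted p = 7.9e-04), 3.4-fold higher in CPN-/- CRY2 (log2 1.77, SE 0.21, adjusted p = 0.0047) and 20-fold lower in CPN-/- CRY1 compared with CPN-/- CRY2 (log2 -4.32, SE 0.24, adjusted p = 2.7e-04). All 3 calls were kept in all 15 alternatives. Sox9, the cartilage transcription factor, moved the same way (log2 -0.72 in CPN-/- CRY1, with 0.84 in CPN-/- CRY2, both called). Comp, the only other chondrocyte marker tested, gave 0.41 and 1.11, neither called, and so did not fall in CPN-/- CRY1. The 6 chondrocyte markers summed to 14.7 and 11.9 CPM in CPN-/-, 9.1 and 8.17 CPM in CPN-/- CRY1 and 23.6 and 24.3 CPM in CPN-/- CRY2, with Hapln1 at 0 and 4 of 6 under 1 CPM everywhere. Sox9 alone was at 13.8 and 11.2 CPM, 8.05 and 7.1 CPM, and 22.3 and 22.6 CPM in the same order, so the sums mostly repeat this gene. The part of these markers in the result was not tested.

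Col11a1 lies on chromosome 3, 1 of 4 chromosomes (3, 15, 16 and 19) given apart because the median of all their tested genes lay away from 0 in CPN-/- CRY1. The median log2 fold change of tested genes in CPN-/- CRY1 was -0.28 on chromosome 3, -0.36 on 15, 0.27 on 16 and 0.31 on 19, and 40% of the tested genes on the 4 were called, against 22% elsewhere. Relative to its chromosome, Col11a1 differed by -2.28 in CPN-/- CRY1 and by 1.65 in CPN-/- CRY2, where the median of chromosome 3 was 0.11. The other 3 collagen genes on these chromosomes missed the threshold in all 3 comparisons with all 6 libraries. Col2a1, the cartilage type II chain on chromosome 15, gave 0.09 (SE 0.47) in CPN-/- CRY1 from 7 to 14 counts per library. Col8a1, a short-chain collagen of vessel walls on chromosome 16, gave 0.09 (SE 0.15) with 253 to 336 CPM in all libraries. It was 0.31 without CPN-/- replicate 1 and -0.10 without replicate 2, and in CPN-/- CRY2 0.08 and -0.33. Between the CRY lines its 0.23 was called on the 4 libraries alone (adjusted p = 0.0013). The median of chromosome 16 was 0.35 in that comparison with all 6 libraries, and relative to it Col8a1 differed by -0.12. Col17a1, a chain of the epithelial hemidesmosome on chromosome 19, gave -0.09 (SE 0.25) from 28 to 44 counts. Relative to their chromosomes, Col2a1 differed by 0.45, Col8a1 by -0.19 and Col17a1 by -0.41 in CPN-/- CRY1 against CPN-/-. These relative values were not tested. Over the 22 genes on other chromosomes the median log2 fold change was 0.21 in CPN-/- CRY1, with 0.45 in CPN-/- CRY2, against 0.14 and 0.44 over all 26. Among called genes of the marker and pathway lists, Postn and Itga10 lie on chromosome 3, Fbln1 on 15 and Acta2 on 19. Their values are not given relative to these chromosomes.

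Type I collagen missed the threshold against CPN-/- with all 6 libraries, but not in every alternative. Of the 10 fibrillar genes, Col11a1 was the 1 called against CPN-/- in each CRY line with all 6 libraries, and the medians were -0.13 in CPN-/- CRY1, with 0.34 in CPN-/- CRY2. Col1a2 was at 5079 and 3624 CPM in CPN-/-, 4008 and 3761 CPM in CPN-/- CRY1 and 6335 and 5841 CPM in CPN-/- CRY2. The CPN-/- libraries enclosed those of CPN-/- CRY1, and CPN-/- CRY2 was above both. Col1a2 was 1.57-fold lower in CPN-/- CRY1 compared with CPN-/- CRY2 (log2 -0.65, SE 0.17, adjusted p = 0.0453), a call that 5 of 15 alternatives lost, among them those without a CPN-/- CRY1 library (adjusted p = 0.22 and 0.29) or a CPN-/- CRY2 library (0.25 and 0.18). Its log2 value in CPN-/- CRY2 was 0.48 (SE 0.17, adjusted p = 0.15), and it was called with the length trend removed (0.39, adjusted p = 0.025). Without CPN-/- replicate 1 the value was 0.75 and without replicate 2 0.27. In CPN-/- CRY1 it was 0.10 without replicate 1 and -0.38 without replicate 2.

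Col1a1 had the same order, with 3319 and 2179 CPM, 2582 and 2532 CPM, and 3936 and 3805 CPM, and missed the threshold in all 3 comparisons (log2 -0.10, 0.49 and -0.60, adjusted p = 0.7, 0.18 and 0.082). Its log2 value in CPN-/- CRY1 was 0.23 without CPN-/- replicate 1 and -0.37 without replicate 2, so its direction depends on which CPN-/- library is used. In CPN-/- CRY2 it was called with the length trend removed (0.37, adjusted p = 0.029), and was 0.83 without replicate 1 and 0.23 without replicate 2. Between the CRY lines it was called in 7 of 15 alternatives, with -0.60 without CPN-/- replicate 1 (adjusted p = 3.5e-09) or replicate 2 (6.2e-09) and on the 4 libraries alone (3.5e-08).

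Type V, which shares fibril cores with type XI, missed the threshold with all 6 libraries. Col5a1 gave log2 values of 0.51 (SE 0.20, adjusted p = 0.099) in CPN-/- CRY1 and 0.43 (SE 0.20, adjusted p = 0.23) in CPN-/- CRY2, and Col5a2 0.11 and 0.00 (SE 0.12 each). Among the alternatives, Col5a1 in CPN-/- CRY1 was called by the DESeq2 Wald test and with the length trend removed (0.28, adjusted p = 0.012). Its value there was 0.86 without CPN-/- replicate 1 and 0.24 without replicate 2, and in CPN-/- CRY2 0.78 and 0.16. Col5a2 in CPN-/- CRY1 was 0.21 without replicate 1 and 0.02 without replicate 2. The ratio of Col11a1 to Col5a1 per kb was 0.115 and 0.119 in CPN-/-, 0.0159 and 0.0119 in CPN-/- CRY1, with 0.297 and 0.294 in CPN-/- CRY2. The other chain genes of types XI and V, Col11a2 and Col5a3, missed the threshold with all 6 libraries, as did Col3a1, Col27a1 and Col2a1, and Col11a2 and Col2a1 did so in every alternative that tested them. Col5a3, from 7 to 26 counts per library, gave -1.13 in CPN-/- CRY1 and was called there with the length trend removed (-1.26, adjusted p = 0.028). It was -0.77 without CPN-/- replicate 1 and -1.37 without replicate 2. Between the CRY lines Col5a3 (-1.19) and Col3a1 (-0.39) were each called in 4 alternatives, with adjusted p = 0.016 and 0.0031 on the 4 libraries alone. Without CPN-/- replicate 1 and 2, Col3a1 was -0.06 and -0.33 in CPN-/- CRY1. In CPN-/- CRY2 it was 0.33 and 0.06, and Col27a1 0.60 and 0.31.

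No FACIT gene was called by edgeR in the fit of all 6 libraries. At an unadjusted p under 0.05 there was 1 of 4 in CPN-/- CRY1, 1 in CPN-/- CRY2 and 3 between the CRY lines, and DESeq2 called 0, 1 and 1. The shares of all tested genes for the unadjusted p and for DESeq2 are not given here, so these counts cannot be set against them. Col12a1, the large FACIT of tendon and skin, was at 720 and 306 CPM in CPN-/-, 671 and 654 CPM in CPN-/- CRY1 and 1241 and 1168 CPM in CPN-/- CRY2. CPN-/- CRY2 was above all other libraries, and the CPN-/- libraries enclosed those of CPN-/- CRY1. Its log2 value in CPN-/- CRY2 was 1.23 (SE 0.35, adjusted p = 0.096). It was called with the length trend removed (0.94, adjusted p = 0.0037), and was 1.98 without CPN-/- replicate 1 and 0.75 without replicate 2. Col16a1 was at 241 to 300 CPM in all libraries, and the log2 values of Col9a3 and Col20a1 lay between -0.46 and 0.87 over the 3 comparisons. With the length trend removed, Col9a3 (0.87, adjusted p = 0.03) and Col20a1 (-0.41, adjusted p = 0.0468) were called in CPN-/- CRY1. Col9a3 was 0.56 there without CPN-/- replicate 1 and 1.13 without replicate 2. Under the same fits Col20a1 was -0.34 and -0.26, Col12a1 1.12 and -0.11, and Col16a1 0.25 and 0.11. For CPN-/- CRY2 the values of Col16a1 were 0.29 without replicate 1 and 0.15 without replicate 2. Between the CRY lines, Col9a3 (0.87), Col20a1 (-0.46) and Col12a1 (-0.86) were called on their 4 libraries alone, with adjusted p = 0.0034, 0.0011 and 1.1e-12, and without either CPN-/- library.

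Col7a1, the anchoring fibril chain that ties basement membranes to the dermis, was lower in CPN-/- CRY2. It was at 11 and 13.4 CPM in CPN-/-, 12.6 and 12.9 CPM in CPN-/- CRY1 and 6.03 and 6.97 CPM in CPN-/- CRY2. CPN-/- and CPN-/- CRY1 overlapped and CPN-/- CRY2 lay below both, 1.88-fold below CPN-/- (log2 -0.91, SE 0.15, adjusted p = 0.016) and 1.96-fold below CPN-/- CRY1 (log2 0.97 for CPN-/- CRY1, SE 0.15, adjusted p = 0.0073). The call between the CRY lines was lost without any one CRY library (adjusted p from 0.0575 to 0.09). The value against CPN-/- kept its call in 10 of 15 alternatives. These include the fits without a CPN-/- library, whose calls do not show a difference between lines. The call was lost on the 4 libraries of the comparison alone (adjusted p = 0.061) and without any one CRY library. Without CPN-/- replicate 1 and 2 the value was -1.05 and -0.76. Col10a1, a hypertrophic cartilage collagen, had 4 to 19 counts and gave 1.77 in CPN-/- CRY2 without CPN-/- replicate 1, against 0.29 without replicate 2.

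The genes that process, cross-link and bind collagen were described from lists of 72 genes, of which 63 were tested. In CPN-/- CRY1, 9 were higher and 11 lower (31.7% called), in CPN-/- CRY2 8 higher and 5 lower (20.6%), and between the CRY lines 9 higher and 15 lower in CPN-/- CRY1 (38.1%). Of all tested genes, 24.3%, 6.66% and 16.3% were called in these comparisons. Without either CPN-/- library the pathway totals were higher in every comparison, and without any one CRY library they were lower in every comparison. These fits leave a line with 1 library, and the shares of all genes called in them are not given here.

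Genes of prolyl and lysyl modification, most of whose enzymes hydroxylate the chains in the endoplasmic reticulum, were lower than in CPN-/- wherever they were called in a CRY line. Of 14 tested, 5 were lower in CPN-/- CRY1, where 13.1% of all tested genes were called lower, and 3 were in CPN-/- CRY2, where 4.08% were. P4ha1, the catalytic subunit of prolyl 4-hydroxylase, was at 669 and 602 CPM in CPN-/-, 260 and 267 CPM in CPN-/- CRY1 and 379 and 353 CPM in CPN-/- CRY2 (log2 -1.27 and -0.80, adjusted p = 5.9e-04 and 0.0063). P4ha2 (log2 -0.97 and -1.07) and Plod2 (-0.49 and -0.99), a lysyl hydroxylase, were called lower in both lines, and P4hb (-0.80) and P3h3 (-0.36) in CPN-/- CRY1. The median over the list was -0.13 and -0.08. Of 7 tested genes for folding and export, Fkbp14 (0.48) was higher in CPN-/- CRY1, where 11.2% of all tested genes were called higher. The CPN-/- CRY1 call of Fkbp14 was kept in 10 of 15 alternatives and that of P3h3 in 9 of 15.

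Among 6 tested genes of propeptide removal, Adamts2, the N-proteinase of fibrillar procollagen, was higher in CPN-/- CRY1 (log2 0.90, adjusted p = 0.014) and lower in CPN-/- CRY2 (-1.52, adjusted p = 0.0092), at 4.21 and 3.26 CPM in CPN-/-, 7.58 and 6.42 CPM in CPN-/- CRY1 and 1.29 and 1.33 CPM in CPN-/- CRY2. This is the reverse of the order of Col11a1. Bmp1, the C-proteinase, was higher in CPN-/- CRY1 (0.63). Of the 6 cross-linking genes, the lysyl oxidases and peroxidasin, Loxl1 (0.52) and Loxl2 (1.30, from 8 to 34 counts per library) were higher and Lox (-1.03) lower in CPN-/- CRY1. Of 7 tested collagen receptor genes, Itga1, the integrin chain for type IV collagen, was higher in both lines (1.26 and 1.71, adjusted p = 0.0073 and 0.0047). Itgb1 (0.40) was higher and Itga11 (-1.62, from 6 to 21 counts per library) lower in CPN-/- CRY1, and Itga10 (1.02) was higher in CPN-/- CRY2. Of all tested genes, 11.2% were called higher and 13.1% lower in CPN-/- CRY1. For CPN-/- CRY2 these shares were 2.58% and 4.08%. Whether these short lists differ from all genes was not tested.

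The small proteoglycans and matricellular proteins that coat fibrils were the list with the most calls in CPN-/- CRY2. Of 12 tested, 6 were called, all higher, with a median log2 fold change of 0.98, where 2.58% of all tested genes were called higher. Postn (periostin) was at 526 and 437 CPM in CPN-/-, 584 and 478 CPM in CPN-/- CRY1 and 2807 and 3210 CPM in CPN-/- CRY2 (log2 2.64, adjusted p = 4.7e-04). Aspn (asporin) was at 98.7 and 75.3 CPM in CPN-/-, 27 and 20.4 CPM in CPN-/- CRY1 and 302 and 346 CPM in CPN-/- CRY2 (log2 -1.88 and 1.90, adjusted p = 0.0013 and 0.0023). Ogn (osteoglycin) had the same order, with log2 values of -0.84 and 1.38, and this is also the order of Col11a1. Dcn (decorin), at 1 to 61 counts per library, was called lower in CPN-/- CRY1 and higher in CPN-/- CRY2, and Fmod (1.96) and Podn (0.88) were higher in CPN-/- CRY2. The calls of Postn, Aspn and Ogn in CPN-/- CRY2 were kept in all 15 alternatives, those of Dcn and Fmod were lost without either CPN-/- CRY2 library, and that of Podn was lost in 5 of 15, which were the fit on 4 libraries and those without any one CRY library. In CPN-/- CRY1, Sparc (osteonectin), a collagen-binding protein, was higher (0.59), a call kept in 10 of 15 alternatives.

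**Figure D5:**
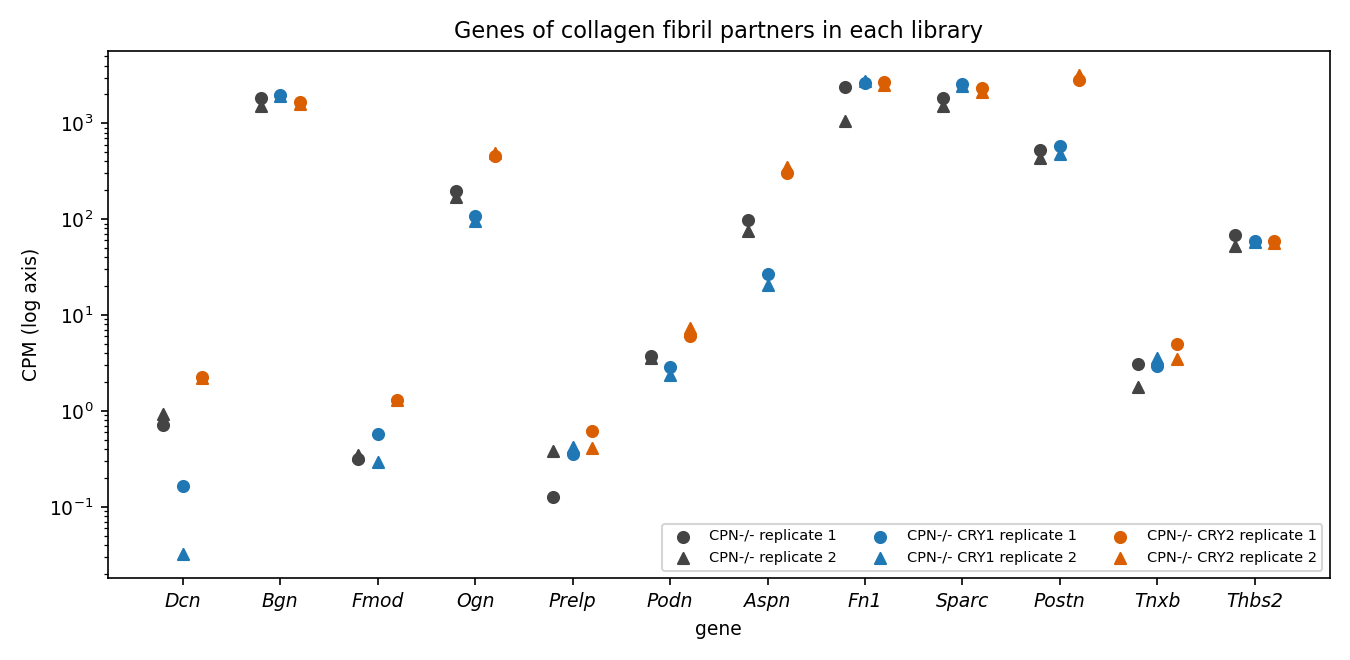
CPM (log axis) of the 12 tested genes of fibril-binding proteins in each library, with colours for the lines and circles and triangles for the libraries. Ogn, Aspn, Podn, Dcn, Fmod and Postn are highest in both CPN-/- CRY2 libraries, and Ogn, Aspn and Dcn are lowest in both CPN-/- CRY1 libraries.

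Libraries of different lines that do not overlap were not more common among collagen genes than among all genes in CPN-/- CRY1 (15 of 26, 57.7%, against 66.9% of all tested genes). The share was 80.8% (21 of 26) against 55.1% in CPN-/- CRY2, and 76.9% (20 of 26) against 73.3% between the CRY lines. Of the 21 in CPN-/- CRY2, all but Col11a2, Col18a1 and Col7a1 were higher, and all 21 are measured against the CPN-/- pair that stood apart.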

How the data were processed

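The authors mapped stranded paired-end reads of polyadenylated RNA to mm10 with STAR, and featureCounts gave the number of reads per gene, per the submitters' notes and the study's methods. The annotation, the strand setting and the handling of reads with several matches are not given in the sources used here. The deposited values are unnormalized counts, 1 per library for each of 27179 NCBI Gene identifiers. Of these, 1904 had no symbol in the RefSeq table.

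The collagen genes, classes and pathway lists were chosen with earlier results of these data known. Counts were tested with edgeR 4.0.16 in R 4.3.3: genes kept by filterByExpr (its settings of 10 counts at the median library size and 15 summed), TMM factors, 1 model over the 6 libraries with the cell line as its only term, robust quasi-likelihood dispersions, a two-sided quasi-likelihood F test and Benjamini-Hochberg adjustment over 14069 tested genes. All 26 collagen genes were tested. The standard error (SE) is the absolute log2 fold change over the root of F. CPM values are counts scaled by TMM-normalized library size, and CPM per kb divides them by the longest coding GENCODE transcript. CPM of each library are given for collagen genes called in at least 1 comparison with a mean of at least 100 counts, and genes of the lists are named where called. Among marker and pathway lists, macrophage markers summed to 3.67 to 6.7 CPM and osteoblast markers to 33.4 to 46 CPM.

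Alternatives were DESeq2 1.42.0 (its size factors in edgeR, or its Wald test), library size alone, other filters, a replicate block, a fit on 4 libraries alone, the stricter threshold of 0.01, the length trend of each library removed by a loess curve (span 0.5), and each library left out. TMM from genes outside chromosomes 3, 15, 16 and 19 was added after seeing the data. The steps were tested on simulated data. Collagen exons shared at most 6.07% of their bases with another gene (Col9a3 with Tcfl5), which matters where counting ignored strand. Sequences and coordinates are from RefSeq, GRCm38.p6, the assembly of mm10.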

Additional observations from a re-analysis of the deposited data

Results flagged for a closer look

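Collagen genes whose response differed between CPN-/- CRY1 and CPN-/- CRY2 by the direct test (edgeR's quasi-likelihood test, Benjamini-Hochberg adjusted p under 0.05) are listed here as log2 fold changes of CPN-/- CRY1 against CPN-/- CRY2. Col11a1 differed by -4.32, Col18a1 by -1.38, Col6a2 by -0.92, Col6a1 by -0.90 and Col1a2 by -0.65. Col4a1 differed by 1.20, Col7a1 by 0.97 and Col4a2 by 0.90. The value of Col11a1 and that of Col18a1 kept their calls with each library left out in turn, and the other 6 lost theirs without any one of the CRY libraries. Each CRY line was grown from a single colony, so that the difference between the cryptochromes and that between the colonies cannot be told apart.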

How the results depend on the processing

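No called fold change of a collagen gene changed sign under any alternative. The numbers of collagen genes called changed with the treatment of the CPN-/- pair. The shares of all genes called under the alternatives are not given here, so these changes are not read as collagen results. For CPN-/- CRY1 against CPN-/- the 6 called genes became 11 with the length trend removed, and 3 to 15 with a library left out. For CPN-/- CRY2 against CPN-/- the 5 became 11 with the length trend removed, 3 with only the 4 libraries of the comparison, 3 at an adjusted p under 0.01, and 2 to 17 with a library left out. Between the CRY lines the 8 became 17 with the length trend removed, 17 with only the 4 libraries, 4 at an adjusted p under 0.01, and 2 to 17 with a library left out. The median log2 fold change of the collagen genes, 0.14 in CPN-/- CRY1, was -0.01 with the length trend removed and 0.03 to 0.30 with a library left out. In CPN-/- CRY2 it was 0.44, with 0.22 to 0.67, and between the CRY lines -0.29, with -0.37 to -0.09 (the last without CPN-/- CRY2 replicate 2). Col1a1 in CPN-/- CRY1 reversed to 0.23 without CPN-/- replicate 1, from -0.10. Leaving out a library leaves a line with 1 library, which is assumed to vary like the others.

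The labels do not say whether replicates of different lines with the same number belong together. Their differences were correlated by -0.0791, 0.141 and -0.0296 over 14069 genes, which cannot decide this. With a replicate block the counts were 6, 7 and 9. The added genes were Col4a5 and Col12a1 in CPN-/- CRY2 and Col1a1 between the CRY lines. Of the pathway genes called, 4 of 20, 5 of 13 and 7 of 24 in the 3 comparisons kept their call in every alternative. Precision was lowest for Col2a1, Col5a3, Col10a1 and Col4a6, with at most 27 counts in a library.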
